A study of Mus musculus with 14 samples.

Results

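The genes described here encode the proteins of the cytosolic ribosome. They were taken from the array as every probe set whose only platform symbol begins with Rpl or Rps followed by a digit, begins with Rplp, or is Rpsa, without the Rps6k kinases and pseudogene symbols. Each gene was represented by its probe set of highest mean over the 14 arrays. The rule gave 48 genes, with 100 probe sets, of the 12393 genes that had a single symbol. Of these genes, 26 belong to the large and 22 to the small subunit. Probe sets that share a ribosomal protein symbol with another symbol, 102 in all, were kept apart. Several well known proteins, Rpl5, Rplp1 and Rps27a among them, are for that reason not among the 48.

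The samples were livers of C57BL/6J mice with diet-induced obesity (DIO), measured on a 1-colour Affymetrix array with 1 array per sample. All groups share the strain and the obesity. The vehicle group (n = 5) was given vehicle. The GFP group (n = 4, replicates 1, 2, 3 and 5) received an adenovirus that makes an shRNA, a short hairpin RNA, against green fluorescent protein (GFP), and the Jnk1 group (n = 5) an adenovirus with an shRNA against Jnk1, a stress-activated kinase whose gene is Mapk8. Such a hairpin is processed in the cell into a guide which lowers its matching messenger RNA. The series is titled a liver-specific knockdown, but the liver holds other cells beside hepatocytes, and which of them took up virus is not stated. Neither are virus dose, time, mouse age, nor whether each sample is 1 mouse, so the p-values cover the spread among these samples, which may in part be technical.

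Ribosomes are built in the nucleolus from ribosomal RNA and about equal amounts of each ribosomal protein, and the messenger RNAs of these proteins are among the most abundant of the cell. Most of them start with a run of pyrimidines, the 5′ terminal oligopyrimidine (TOP) element, through which the kinase Mtor and the RNA-binding protein Larp1 control their translation. In liver, ribosome number follows feeding and growth, and that control acts largely on translation rather than on messenger RNA, which is what the array measures.

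The targeted gene was checked first. Mapk8 had a mean log2 intensity of 6.07 ± 0.18 (SD, n = 5) in the Jnk1 group, 7.38 ± 0.09 (n = 4) in the GFP group and 7.47 ± 0.14 (n = 5) in the vehicle group, and was lower in Jnk1 than in GFP arrays by a log2 difference of -1.31 ± 0.11 (standard error, SE; limma adjusted p = 3.5e-07). The Jnk1 arrays also differed from the others technically. Their spike-in controls were lower, at 8.36 ± 0.32 on the log2 scale against 8.91 ± 0.08 in GFP and 8.91 ± 0.10 in vehicle arrays, and so was the intensity of their 99th percentile, at 2526 ± 73 against 2795 ± 152 and 2880 ± 152. Each of these 4 differences had an adjusted p = 0.0397 over 15 exact permutation tests of array measures. The 3′ to 5′ log2 difference of Gapdh, a sign of RNA quality, was -0.45 ± 0.04 in Jnk1 and -0.54 ± 0.04 in GFP arrays (exact permutation, adjusted p = 0.0397). Against the -0.51 ± 0.06 of vehicle arrays the Jnk1 difference did not pass (exact permutation, adjusted p = 0.187). The deposited median intensity, on which the scaling to the same median acts, was lower in all Jnk1 than in all GFP arrays, at 44.2 ± 1.1 against 49.6 ± 5.9 (exact permutation, adjusted p = 0.0397), with GFP array 2 the highest of all at 58.3, and was 45.1 ± 3.3 in vehicle arrays. The part of these array differences in the results below was not tested except where values under another scaling are given.

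Liver identity was checked by 6 hepatocyte markers (Alb, Apoa1, Ttr and others), all tested. Their mean log2 intensity ranged from 11.90 to 12.15 in vehicle, 11.86 to 12.00 in GFP and 11.70 to 11.77 in Jnk1 arrays. Of these 6, 2 were called lower in Jnk1 arrays against GFP and 3 against vehicle. As deposited, 5 were called lower against GFP (median -0.44) and all 6 against vehicle (median -0.53), where 18.7% and 19% of all probe sets were. The Kupffer cell and macrophage markers, 6 of 7 tested, ranged from 7.13 to 8.43, from 7.17 to 7.37 and from 6.56 to 6.93. Against GFP 5 of them were called lower, but the list did not move as one against vehicle: 3 were called lower and the other 3 differed by more than 0, over a span from -3.04 to 0.34, and in GFP against vehicle 2 were called higher and 2 lower. Endothelial markers, 4 of 4 tested, ranged from 7.26 to 7.37, from 7.03 to 7.48 and from 6.64 to 6.97, with 3 called lower against each control. Stellate cell markers, 2 of 4 tested, ranged from 7.01 to 7.33, from 6.98 to 7.17 and from 6.63 to 6.81, and both were called lower against each control. The erythroid marker on the array had a median of 9.07 in vehicle, 9.05 in GFP and 7.02 in Jnk1 arrays, which ranged from 6.72 to 7.51 and overlapped neither control, and was called lower against both, at log2 differences of -2.02 against GFP and -2.04 against vehicle. Markers of proliferation, 3 of 4 tested, ranged from 3.67 to 4.72 in vehicle, 5.71 to 6.19 in GFP and 6.13 to 6.64 in Jnk1 arrays. All 3 were called higher than vehicle in both virus groups, with median differences of 1.67 in Jnk1 and 1.33 in GFP, and 0 were called in Jnk1 against GFP, where 1 had an unadjusted p under 0.05. T and NK cell markers, 3 of 6 tested, ranged from 3.53 to 4.65, from 4.26 to 5.42 and from 5.13 to 5.23. Against vehicle 3 were called higher in Jnk1 and 1 in GFP arrays, and in Jnk1 against GFP 0 were called, with 1 at an unadjusted p under 0.05. Of 3 neutrophil markers and 1 B cell marker tested, 0 were called by limma in any comparison; at an unadjusted p under 0.05 there was 1 neutrophil marker in each Jnk1 comparison and the B cell marker against GFP. None of the 4 cholangiocyte markers passed the filter on dim probe sets. Marker counts are after quantile normalization except where said. Over all probe sets, 17.3% were called higher and 15.8% lower in Jnk1 against GFP. Against vehicle, 18.9% were called higher and 18.7% lower in Jnk1, and 2.05% and 0.53% in GFP. The part of these markers in the differences below was not tested. In whole liver, fewer cells of a type and less RNA per cell cannot be told apart.

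Of the 48 genes, 45 passed the filter on dim probe sets, which kept 13575 probe sets by their mean over all 14 arrays. The 3 below it were Rpl14, the muscle paralog Rpl3l and the testis paralog Rpl39l. Of the 45 probe sets tested, 33 were among the 1358 brightest probe sets tested. Spread between arrays of 1 group was small: the median within-group SD of the 45 was 0.126 on the log2 scale, from 0.045 for Rpl7a to 0.471 for Rpl12, against 0.222 over all probe sets and 0.114 in the brightest 10%.

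The ribosomal protein genes as a body overlapped between the groups under 2 of 3 scalings. After quantile normalization their mean log2 intensity was 9.94 ± 0.04 (SD, n = 5) in vehicle arrays, 9.89 ± 0.07 (n = 4) in GFP arrays and 9.91 ± 0.05 (n = 5) in Jnk1 arrays. The arrays of the 3 groups overlapped. Scaling moved these means: as deposited, the vehicle mean was 9.98 ± 0.08, the GFP mean 9.88 ± 0.05 and the Jnk1 mean 9.87 ± 0.05. With every array set to the same median, the GFP mean was 9.77 ± 0.14 and the Jnk1 mean 9.93 ± 0.04, with vehicle arrays between 9.71 and 10.13, and there the GFP and Jnk1 arrays did not overlap. On single GFP and vehicle arrays many of the genes were high or low together. GFP array 2 held the highest value of its group for 34 of the 45 genes and GFP array 3 the lowest for 24. Vehicle array 2 was highest for 22 and vehicle array 1 lowest for 20. In the Jnk1 group the highest values were spread, with arrays 1, 2 and 3 each highest for 12 genes and array 2 also lowest for 18. The same counts over all probe sets are not given here.

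**Figure D1:**
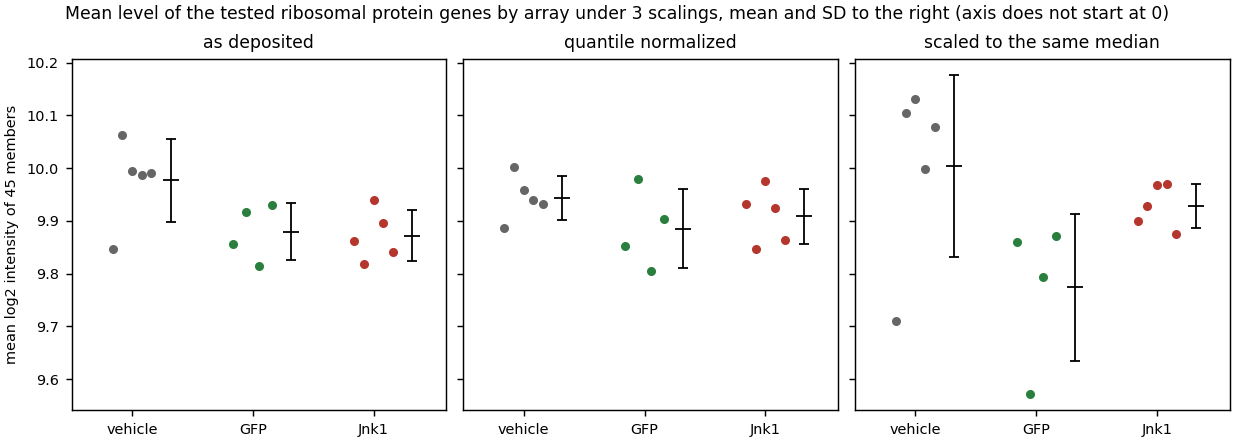
Mean log2 intensity of the 45 tested ribosomal protein genes on each array (vertical axis) in the vehicle, GFP and Jnk1 groups, under 3 scalings; points are arrays, bars mean and SD. The 3 groups overlap as deposited and after quantile normalization; with arrays set to the same median, the 4 GFP arrays lie below the 5 Jnk1 arrays.

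Sequences at the transcript start are shown first, since the pyrimidine run is the feature by which this gene family is best known. RefSeq promoters of assembly GRCm38.p6 held 42 of the 48 genes. A run was counted where a C that begins within 10 bases of an annotated start is followed by at least 4 more C or T on the transcript strand. The run was found in 27 of the 42 genes (64.3%), against 9297 of 27025 genes (34.4%) in the whole table. Rps6, Rplp2, Rps27 and Rpl27a, all in the results below, show it, printed from 10 bases before to 20 bases from the start, with the run in capitals.
Rps6, chr4:86857348-86857377, minus strand: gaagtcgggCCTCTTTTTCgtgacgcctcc
Rplp2, chr7:141447641-141447670, plus strand: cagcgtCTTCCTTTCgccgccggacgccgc
Rps27, chr3:90213629-90213658, minus strand: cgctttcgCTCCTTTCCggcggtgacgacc
Rpl27a, chr7:109519185-109519214, plus strand: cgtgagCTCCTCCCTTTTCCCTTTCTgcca

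Of the called genes in the table, Rpl41, Rps3a1, Rps4x and Rps25 hold no such run in the same window, and the rest, Rps27l, Rps18 and Rpl22l1 among them, do.
Rpl41, chr10:128549149-128549178, minus strand: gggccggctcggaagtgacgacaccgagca
Rps3a1, chr3:86142649-86142678, minus strand: gccggaagggcgaaagagcaagggtcacgt
Rps4x, chrX:102189372-102189401, minus strand: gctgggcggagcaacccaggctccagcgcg
Rps25, chr9:44407704-44407733, plus strand: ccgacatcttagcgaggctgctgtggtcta

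Genes with and without the run occurred on both sides of the comparisons that follow. Of the genes called higher in the Jnk1 group against either control, 8 of 9 in the table had it, of those called lower 3 of 6, and of those not called 16 of 27. Annotated starts can lie some bases from the start used in liver, so a missing run says only that these letters are not in this window.

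The comparison of the Jnk1 with the GFP hairpin asks what differs when both livers received a virus. Of the 45 ribosomal protein genes, 9 were higher and 5 lower in Jnk1 arrays (limma, adjusted p under 0.05 over all 13575 probe sets). That is 31.1% of the genes, where 33.1% of all probe sets and 50.7% of the brightest 10% were called. By direction, 17.3% of all probe sets were called higher and 15.8% lower. The groups did not overlap for 11 of the 45 genes, against 28.1% of all probe sets and 43.4% of the brightest 10%. The median log2 difference of the 45 was 0.04, with 27 above 0, and that of all probe sets was -0.01. Large subunit proteins gave 4 higher and 1 lower of 23, and small subunit proteins 5 higher and 4 lower of 22. The share called was thus near that of the array and below that of the brightest 10%, to which 33 of the 45 belong. That gap was not tested. Calls went both ways in both subunits. The splits depend on the scaling: with arrays set to the same median, 10 of the 45 were higher and 1 lower, and over the array 2986 probe sets (22%) were higher and 1144 (8.43%) lower, against 2350 and 2147 after quantile normalization.

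**Figure D2:**
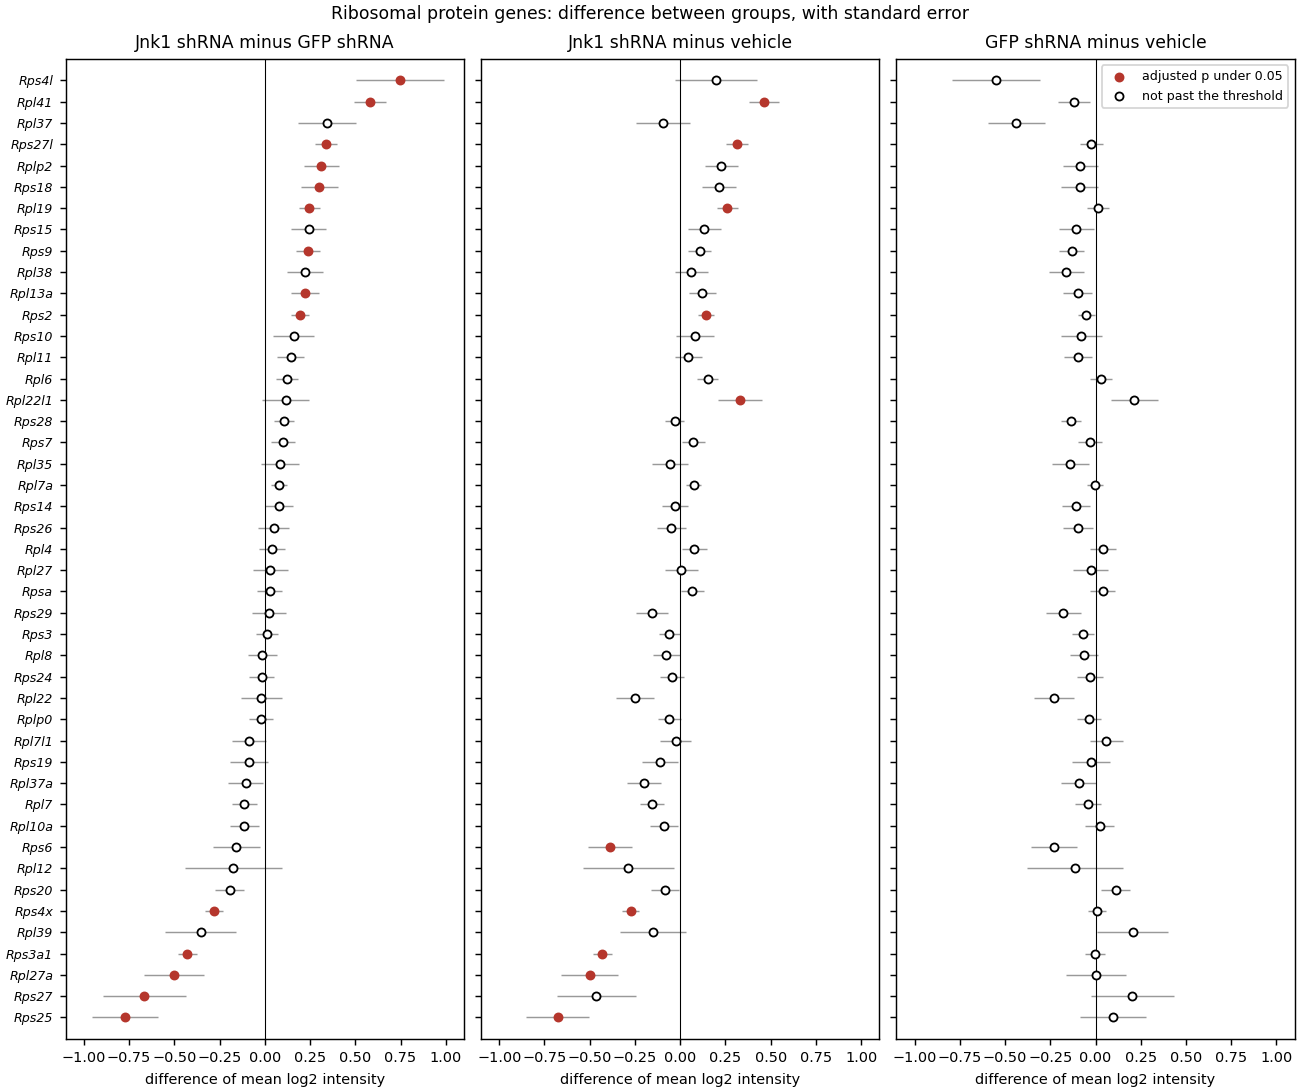
Difference of mean log2 intensity (horizontal axis) with its SE for each of the 45 tested ribosomal protein genes (vertical axis, in the same order in each panel) in the 3 comparisons; filled points are called at an adjusted p under 0.05. Filled points lie on both sides of 0 in both Jnk1 panels, 9 right and 5 left against GFP and 5 right and 5 left against vehicle, and the GFP against vehicle panel has none.

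Among large subunit proteins, Rpl41, a very short and basic protein, had the largest difference called. Its Jnk1 arrays read 11.95, 11.54, 11.98, 11.67 and 11.71 on the log2 scale, the GFP arrays 11.13, 11.30, 11.09 and 11.23, and the vehicle arrays 11.23, 11.52, 11.27, 11.27 and 11.25. Every Jnk1 array was above every control array, although Jnk1 array 2 exceeded vehicle array 2 by little. Rpl41 rose by 0.58 ± 0.09 against GFP (limma adjusted p = 9.86e-05).

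Rpl19, a protein at the face between the subunits, read 10.90, 10.86, 10.99, 10.87 and 10.75 in Jnk1 arrays and 10.58, 10.67, 10.60 and 10.66 in GFP arrays. The groups did not overlap, and Rpl19 rose by 0.25 ± 0.06 (limma adjusted p = 0.00493). Vehicle arrays read 10.52, 10.77, 10.62, 10.58 and 10.56, so vehicle array 2 lay just above the lowest Jnk1 array.

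Of the stalk, which recruits the GTPases of translation, Rplp2 read 10.91, 10.43, 10.91, 10.52 and 10.52 in Jnk1 and 10.32, 10.46, 10.31 and 10.31 in GFP arrays. Rplp2 rose by 0.31 ± 0.10 (adjusted p = 0.0200), with Jnk1 array 2 inside the GFP range and the call lost without GFP array 5 or Jnk1 array 3, while Rplp0, the stalk base, differed by -0.02 ± 0.07 (adjusted p = 0.825). Rpl13a, which also has a role outside the ribosome in silencing inflammatory messages, rose by 0.22 ± 0.08 (adjusted p = 0.0423) with overlapping groups, and its call was lost as deposited (adjusted p = 0.158), with arrays set to the same median (adjusted p = 0.0711) and without single arrays (GFP 1, 3 or 5, or Jnk1 2, 3 or 4). Rpl11, which with Rpl5 binds Mdm2 and so links ribosome assembly to p53, differed by 0.14 ± 0.08 (adjusted p = 0.172).

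The large subunit protein called lower was Rpl27a, at 8.49, 9.63, 8.86, 9.41 and 9.17 in Jnk1, 9.62, 9.77, 9.45 and 9.61 in GFP and 9.54, 9.65, 9.53, 9.68 and 9.65 in vehicle arrays. The controls were tight and the Jnk1 arrays spread over more than 1 log2 unit, with array 2 inside the control range. Rpl27a fell by 0.50 ± 0.17 against GFP (limma adjusted p = 0.0290). In a limma fit with a spike-in covariate the difference was 0.12 (adjusted p = 0.686), but the spike-in level and the hairpin cannot be told apart here. The call was also lost with arrays set to the same median (adjusted p = 0.25) and without any 1 of GFP arrays 1, 2 and 5 and Jnk1 arrays 1 and 3.

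Among small subunit proteins, the smallest limma adjusted p against GFP was that of Rps3a1, a protein near the exit of the messenger RNA channel. Jnk1 arrays read 10.72, 10.65, 10.68, 10.61 and 10.57, GFP arrays 11.09, 11.11, 11.06 and 11.04, and vehicle arrays 10.97, 11.20, 11.08, 11.12 and 11.01. All 5 Jnk1 arrays lay below all 9 controls. Rps3a1 fell by 0.43 ± 0.05 against GFP, 1.35-fold (limma adjusted p = 1.75e-05), and with arrays set to the same median the difference was -0.30 (adjusted p = 0.0819).

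Rps4x, the X-linked copy of S4, showed the same separation at smaller size. It read 10.67, 10.79, 10.66, 10.75 and 10.68 in Jnk1 arrays, 10.97, 10.96, 10.99 and 11.04 in GFP arrays, and 10.88, 11.00, 11.01, 11.03 and 11.01 in vehicle arrays. Rps4x fell by 0.28 ± 0.05 (adjusted p = 3.72e-04), or by 0.14 with arrays set to the same median (adjusted p = 0.44). In Rps25, a protein needed for initiation at some internal entry sites, Jnk1 arrays read 5.31, 5.32, 4.81, 5.76 and 5.37, GFP arrays 5.83, 6.28, 5.94 and 6.30, and vehicle arrays 5.92, 5.63, 6.15, 6.11 and 6.13. Rps25 fell by 0.77 ± 0.18 (adjusted p = 0.00412). Its probe set is among the dimmer of the 45, and Jnk1 array 4 lies above vehicle array 2.

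Rps27, a zinc-finger protein of the small subunit, read 5.87, 6.87, 7.04, 7.09 and 6.66 in Jnk1 and 7.19, 7.64, 7.19 and 7.48 in GFP arrays. Rps27 fell by 0.67 ± 0.23 (adjusted p = 0.0357); without Jnk1 array 1 the call was lost, as it was without GFP array 2 or 5, without Jnk1 array 5 and with arrays set to the same median (adjusted p = 0.0888). Its close paralog Rps27l, a p53 target, stood on the other side. Rps27l was read on an _x_at probe set at a mean of 10.78 over all arrays, and Rps27 on a dimmer plain _at set at 7.06. The signal of an _x_at set, a class described below, cannot be assigned to 1 locus. An _a_at set of Rps27l also rose, by 0.35. Rps27l read 11.09, 10.82, 11.11, 10.93 and 10.99 in Jnk1, 10.65, 10.55, 10.71 and 10.68 in GFP and 10.60, 10.68, 10.75, 10.68 and 10.65 in vehicle arrays. The Jnk1 arrays were all above the controls, and Rps27l rose by 0.34 ± 0.06 (limma adjusted p = 6.68e-04).

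The other small subunit proteins called higher were Rps18, Rps9, Rps2 and Rps4l. Rps18, a protein of the head, rose by 0.30 ± 0.10 (adjusted p = 0.0329) with overlapping groups, and its call was lost without GFP array 1, 3 or 5 or Jnk1 array 1 or 3. Rps9, near the entry of the channel, rose by 0.24 ± 0.07 (adjusted p = 0.0131) from 10.18, 10.22, 10.13 and 10.04 in GFP to 10.30, 10.53, 10.32, 10.47 and 10.27 in Jnk1 arrays, with no overlap, and lost its call without GFP array 5 (adjusted p = 0.0503). Rps2, also at the channel entry and named here after its values were seen, rose by 0.19 ± 0.05 (adjusted p = 0.00574), but its difference was -0.02 as deposited (adjusted p = 0.897) and the call was lost with arrays set to the same median (adjusted p = 0.426). Rps4l, an autosomal paralog of Rps4x on a dim probe set, read 6.48, 7.34, 7.18, 6.65 and 6.68 in Jnk1 and 6.07, 6.30, 5.70 and 6.41 in GFP arrays and rose by 0.75 ± 0.24 (adjusted p = 0.0257). Vehicle arrays of Rps4l, from 6.04 to 7.18, overlapped both groups, and the call was lost without GFP array 1 or 3 or Jnk1 array 2 or 3.

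Several proteins with well known roles beyond the subunit core did not pass the test against GFP. Rps6, the substrate of the S6 kinases, differed by -0.16 ± 0.13 (adjusted p = 0.367). Rpsa, also known as the laminin receptor, differed by 0.03 ± 0.07 (adjusted p = 0.795), and Rps3, a channel protein with a role in DNA repair, by 0.01 ± 0.06 (adjusted p = 0.906). Rps19, the gene most often mutated in Diamond-Blackfan anaemia, differed by -0.09 ± 0.10 (adjusted p = 0.548), and Rpl39, a small protein of the exit tunnel, by -0.36 ± 0.20 (adjusted p = 0.179).

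Since the spike-in level was lower in every Jnk1 array than in the controls, the calls were also made with that level as a covariate. Because the level did not overlap between Jnk1 and control arrays, this fit cannot tell the hairpin from the array difference. Calls kept or lost are given as values only. Jnk1 array 2 had the spike-in level nearest the controls, 8.76 against 8.77 in the lowest control, vehicle array 3. On that array 11 of the 14 genes called against GFP lay outside the GFP range, and Rpl27a, Rplp2 and Rps18 lay inside. Of the 10 called against vehicle, 8 lay outside the vehicle range, and Rpl22l1 and Rpl27a inside. The part of the spike-in level in this was not tested. Of the 14 ribosomal protein genes called against GFP, 2 kept their call: Rps3a1, at a log2 difference of -0.49 ± 0.08 (SE, limma adjusted p = 7.93e-04), and Rps2, at 0.24 ± 0.07 (adjusted p = 0.0333). The differences of Rps4l (1.04 ± 0.38), Rps9 (0.28 ± 0.11), Rpl13a (0.22 ± 0.13) and Rps25 (-0.69 ± 0.29) had wider errors and did not pass. Those of Rpl41 (0.34 ± 0.11, adjusted p = 0.0536), Rps27l (0.20 ± 0.09), Rpl19 (0.19 ± 0.09) and Rps4x (-0.21 ± 0.07) were smaller than without the covariate and did not pass. For Rplp2 (0.01 ± 0.11), Rps27 (-0.00 ± 0.30) and Rps18 (-0.04 ± 0.12) the difference lay near 0. Rpl37a (-0.44 ± 0.11, adjusted p = 0.00962) and Rps20 (-0.39 ± 0.11, adjusted p = 0.0243), not called without the covariate, were called lower with it. In this fit 16% of all probe sets were called. Against vehicle, Rps3a1 was the only 1 of the 10 called genes that kept its call (-0.50 ± 0.08, adjusted p = 4.16e-04). With the covariate Rpl22 (-0.54 ± 0.15), Rpl37a (-0.54 ± 0.10) and Rps29 (-0.45 ± 0.11) were called lower against vehicle, which they were not without it, and 21.1% of all probe sets were called.

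**Figure D3:**
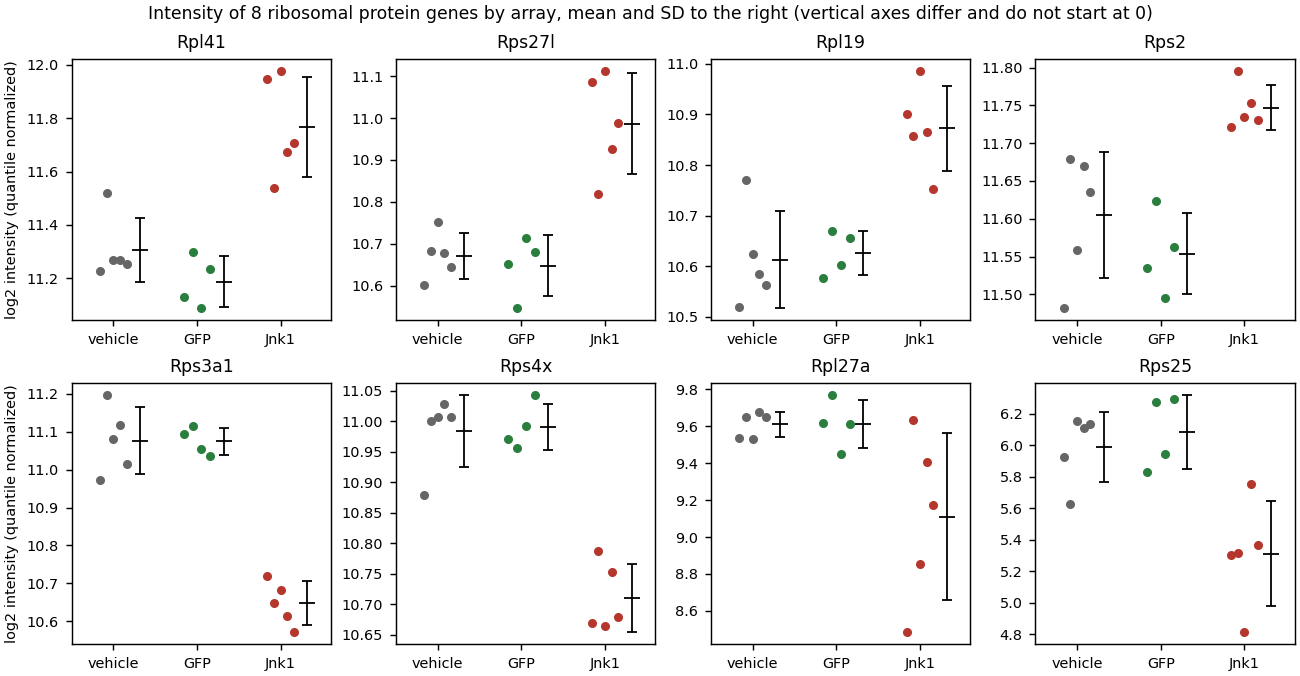
Log2 intensity after quantile normalization (vertical axes, each with its own range) of 8 ribosomal protein genes on each array in the vehicle, GFP and Jnk1 groups; points are arrays, bars mean and SD. Rpl41, Rps27l, Rpl19 and Rps2 are higher and Rps3a1, Rps4x, Rpl27a and Rps25 lower in Jnk1 arrays; Rpl27a shows Jnk1 values from 8.49 to 9.63 against 9.45 to 9.77 in GFP arrays.

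Against vehicle, 5 of the 45 genes were higher and 5 lower in Jnk1 arrays, 22.2% of the genes. That is below the 37.6% of all probe sets and the 56% of the brightest 10% that were called, a gap that was not tested. By direction, 18.9% of all probe sets were higher and 18.7% lower. The median difference was -0.03, with 20 of the 45 above 0, and 7 genes did not overlap between the groups, against 27.7% of all probe sets. This comparison shares its Jnk1 arrays with the previous one, so the values stand side by side and are not independent. As deposited, 2 genes were higher and 9 lower, where 19.8% of all probe sets were higher and 19% lower. With arrays set to the same median 0 were higher and 4 lower, where 18.4% and 14.5% of all were (limma in each case; 8 of the 45 then had an unadjusted p under 0.05).

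Rps3a1 fell by 0.43 ± 0.05 (limma adjusted p = 5.74e-06), Rps4x by 0.27 ± 0.05 (adjusted p = 2.02e-04), Rps25 by 0.68 ± 0.17 (adjusted p = 0.00549) and Rpl27a by 0.50 ± 0.16 (adjusted p = 0.0189) against vehicle. These 4 genes were lower against each control, Rps4x at an adjusted p = 0.0506 against vehicle with arrays set to the same median, and Rpl27a at a difference of 0.12 (adjusted p = 0.648) with the spike-in covariate; without Jnk1 array 3 Rpl27a lost its call (adjusted p = 0.0534). Rps6 was called lower against vehicle, at 6.77, 6.97, 6.76, 6.96 and 6.66 in Jnk1 and 7.31, 7.20, 7.12, 7.09 and 7.33 in vehicle arrays, with no overlap. Rps6 fell by 0.39 ± 0.12 (adjusted p = 0.0179), and the GFP arrays, at 6.96, 7.40, 6.80 and 6.75, overlapped both groups.

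On the other side, Rpl41 rose by 0.46 ± 0.08 (limma adjusted p = 3.35e-04), Rps27l by 0.31 ± 0.06 (adjusted p = 5.61e-04) and Rpl19 by 0.26 ± 0.06 (adjusted p = 0.00174). As deposited, the values were 0.21 (adjusted p = 0.0726), 0.20 (adjusted p = 0.0374) and 0.16 (adjusted p = 0.068). Rps2 was called higher at 0.14 ± 0.05 (adjusted p = 0.0211), but the sign turned under other scalings, to -0.13 as deposited (adjusted p = 0.215) and -0.10 with arrays set to the same median (adjusted p = 0.571), and the call was lost without vehicle array 1 or 3. Rpl22l1, a paralog of Rpl22 that can replace it, rose by 0.33 ± 0.12 (adjusted p = 0.0434). That call was lost without any 1 of vehicle arrays 1, 2, 3 and 4, GFP arrays 1 and 5 and Jnk1 arrays 1, 2, 4 and 5, and with arrays set to the same median (adjusted p = 0.0542).

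Of the genes called against GFP, Rplp2 differed from vehicle by 0.23 ± 0.09 (adjusted p = 0.0595), Rps27 by -0.46 ± 0.22 (adjusted p = 0.109) and Rps4l by 0.20 ± 0.23 (adjusted p = 0.533). Whether these differences are smaller than those against GFP was not tested. Rps18 differed from vehicle by 0.21 ± 0.10 (adjusted p = 0.0937) and Rpl13a by 0.12 ± 0.07 (adjusted p = 0.217) on their chosen probe sets. Other sets of both genes were called higher than vehicle. In Rps18 an _x_at set rose by 0.45 (limma adjusted p = 2.18e-04), while the _a_at set differed by 0.09 (adjusted p = 0.474). In Rpl13a an _x_at set rose by 0.40 (limma adjusted p = 6.28e-04) and an _a_at set by 0.67 (adjusted p = 9.61e-05), while another _a_at set differed by 0.09 (adjusted p = 0.377).

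The GFP hairpin virus against vehicle compares 2 groups whose Jnk1 was not targeted. No ribosomal protein gene was called (limma, 0 of 45, against 2.58% of all probe sets, 2.05% higher and 0.53% lower, and 3.17% of the brightest 10%). At an unadjusted p under 0.05 there were 3, Rpl37, Rps4l and Rps28, named after their values were seen because they are so few, against 15.3% of all probe sets. As deposited there were 7 of the 45 (15.9% of all probe sets), and with arrays set to the same median 19 (17.3% of all), with 0 called after adjustment under either scaling. Rpl37 had the smallest p, with a difference of -0.44 ± 0.16 (adjusted p = 0.18), followed by Rps28 at -0.14 ± 0.06 (adjusted p = 0.261) and Rps4l at -0.55 ± 0.24 (adjusted p = 0.285). The groups did not overlap for 1 gene, Rpl22, against 6.3% of all probe sets. The median difference of the 45 was -0.05 after quantile normalization, -0.11 as deposited and -0.24 with arrays set to the same median, where that of all probe sets was -0.02, 0.03 and -0.11.

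Different probe sets of 1 gene gave a check within the arrays. Of the 45 genes, 19 had more than 1 tested probe set, 59 probe sets in all. Against GFP, 8 of the 19 genes had a probe set that was called, 5 of them by the chosen one, and for 4 of these 5 another probe set was called the same way. In 1 gene, Rps27l, every tested probe set was called alike. Rps27l had 3 probe sets that all rose, by 0.34, 0.35 and 0.34. Both bright probe sets of Rpl41, each an _x_at set, rose, by 0.58 and 0.54, and a dim _x_at set differed by -0.38 (adjusted p = 0.373). Rps18 rose on a pair of _x_at sets, by 0.30 and 0.51, while its _a_at set differed by 0.16 (adjusted p = 0.195). Rpl13a rose on 3 of 4, by 0.22 and 0.33 on _x_at sets and by 0.64 on an _a_at set. Another _a_at set of Rpl13a differed by 0.16 (limma adjusted p = 0.126). The signal of an _x_at set cannot be assigned to 1 locus, so agreement among such sets is a limited check. In Rps14, Rpl7 and Rpl7l1 the chosen probe set was not called but another was: it rose by 0.40 in Rps14 (adjusted p = 0.00227), fell by 0.19 in Rpl7 (adjusted p = 0.0159) and fell by 0.29 in Rpl7l1 (adjusted p = 0.0351). Rps9 was the 1 gene with calls in opposite directions, and had the widest span within a gene, 0.99. Its chosen probe set rose by 0.24, the next brightest differed by -0.01 (adjusted p = 0.953), and the dimmest fell by 0.75 (adjusted p = 0.0147). Against vehicle, 7 of the 19 genes had a called probe set, 2 of them by the chosen one, and 0 had opposite calls. Rpl22 was among the 7, with its second set lower by 0.46 (limma adjusted p = 0.0103).

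Direction also went with the class of probe set. Affymetrix names a probe set _x_at where some probes also match other sequences, _a_at where the probes match variants of 1 gene, and plain _at where they match 1 transcript. Among the 85 tested ribosomal protein probe sets, 10 of the 38 _x_at sets were called higher and 0 lower against GFP, while 2 of the 18 plain _at sets were higher and 5 lower, and the _a_at sets split 3 and 3 of 27. Over the whole array, 20.1% of _x_at sets were called higher and 13.8% lower, and 15.9% and 16.7% of plain _at sets. Ribosomal proteins have many processed pseudogenes, so the signal of an _x_at set cannot be assigned to 1 locus. Of the probe sets that share a ribosomal protein symbol with another symbol, 93 were tested, and 12 were higher and 2 lower. The part of probe set class in the calls was not tested.

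**Figure D4:**
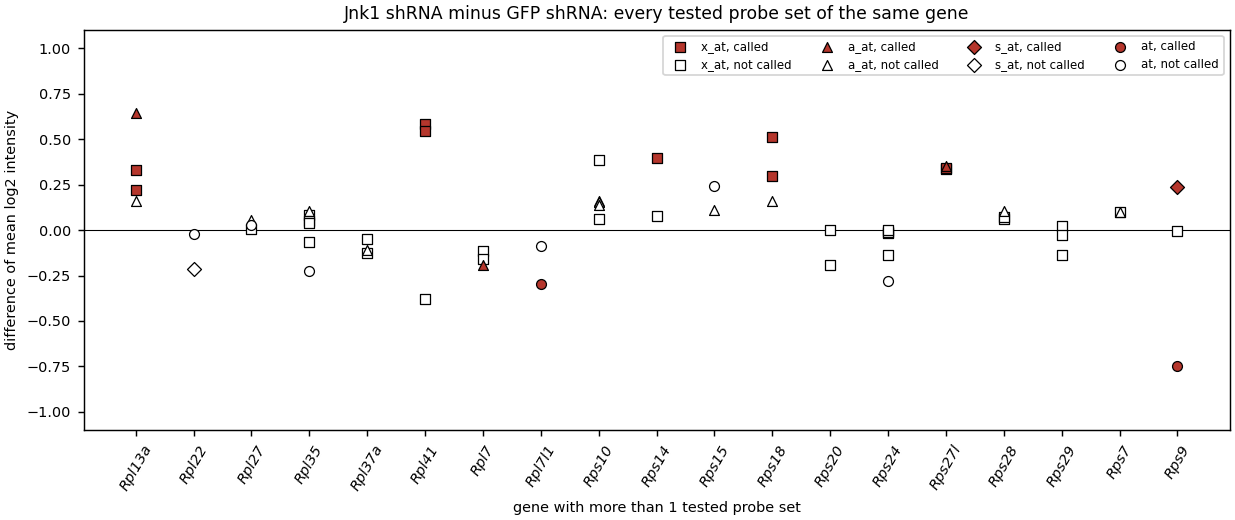
Difference of mean log2 intensity, Jnk1 minus GFP (vertical axis), of every tested probe set of the 19 ribosomal protein genes that have more than 1 (horizontal axis); shapes mark the probe set class, filled symbols an adjusted p under 0.05. The 3 Rps27l sets lie together near 0.34, whereas the 3 Rps9 sets run from 0.24 to -0.75.

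Paralog pairs were compared within each array, a difference that no scaling of whole arrays by a factor can move. The level of such a difference mixes the response of both probe sets, so it is read only between groups. For 4 pairs and 3 comparisons, 12 exact two-sided permutation tests were run on the values as deposited. For Rps4l minus Rps4x the Jnk1 arrays read -4.13, -3.41, -3.44, -4.10 and -3.97 and the GFP arrays -4.90, -4.37, -5.29 and -4.69. They did not overlap, and the mean was 1.00 higher in Jnk1 (exact permutation p = 0.00794, the smallest these 126 splits can give; adjusted p = 0.0476), with both genes of the pair moving, Rps4l up and Rps4x down. Against vehicle the shift was 0.59 (exact permutation p = 0.0952, adjusted p = 0.163).

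Rps27l minus Rps27 read 5.12, 3.91, 3.99, 3.78 and 4.27 in Jnk1 and 3.43, 2.80, 3.52 and 3.21 in GFP arrays. Again the groups did not overlap, and the shift was 0.98 (exact permutation p = 0.0159, adjusted p = 0.0635). Vehicle arrays ranged from 3.11 to 4.32, across most of both groups. Rpl22l1 minus Rpl22 averaged 1.23 ± 0.30 in Jnk1, 1.08 ± 0.06 in GFP and 0.69 ± 0.28 in vehicle arrays. The means of both virus groups were thus above that of vehicle, by 0.54 (exact permutation p = 0.0238, adjusted p = 0.0714) and 0.39 (exact permutation p = 0.0317, adjusted p = 0.0762). Arrays of each virus group overlapped those of vehicle, and neither difference passed the adjustment. Rpl7l1 minus Rpl7 was 0.29 higher in Jnk1 than in vehicle arrays with no overlap (exact permutation p = 0.00794, adjusted p = 0.0476), but 0.13 after quantile normalization (exact permutation p = 0.151). On that scale Rpl7l1 itself differed from vehicle by -0.03 ± 0.09 (limma adjusted p = 0.846) and Rpl7 by -0.15 ± 0.07 (adjusted p = 0.0745). The other Rpl7l1 probe set differed by -0.20 ± 0.10 (adjusted p = 0.119), and the pair was not tested with it.

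**Figure D5:**
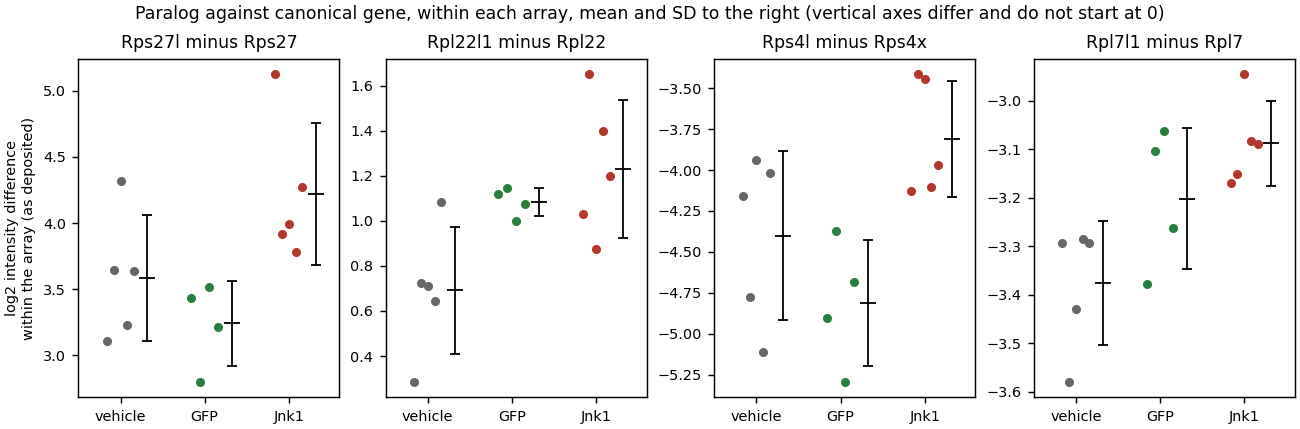
Difference of log2 intensity between a paralog and its canonical gene within each array, as deposited (vertical axes, each with its own range), for 4 pairs in the vehicle, GFP and Jnk1 groups; points are arrays, bars mean and SD. For Rps4l minus Rps4x and Rps27l minus Rps27 all 5 Jnk1 arrays lie above all 4 GFP arrays, and vehicle arrays spread between -5.12 and -3.94 and between 3.11 and 4.32.

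The other genes of ribosome making and translation show what surrounded these values. Of 74 mitochondrial ribosomal protein genes, which serve the organelle's own ribosome, 30 were higher and 5 lower against GFP (median 0.19), and 20 higher and 7 lower against vehicle (median 0.11). The counts of this and every list below are to be read against the shares of all probe sets. Those were 17.3% higher and 15.8% lower against GFP, and 18.9% higher and 18.7% lower against vehicle. No list was tested as a set, and the genes named from each are those of smallest p. That the share of the mitochondrial proteins differs from that of the cytosolic proteins was not tested. Of 61 ribosome assembly factors, 5 were higher and 11 lower against GFP (median -0.15, or -0.02 with arrays set to the same median). Nop16, a nucleolar factor of the large subunit, rose by 1.47 ± 0.11 (limma adjusted p = 8.56e-08) and Nhp2, of the pseudouridylation complex, by 0.84 ± 0.11 (adjusted p = 3.43e-05). Heatr1, of the small subunit processome, fell by 0.84 ± 0.17 (adjusted p = 0.00131) and Emg1, an 18S methyltransferase, by 0.41 ± 0.08 (adjusted p = 0.00126).

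RNA polymerase I transcribes ribosomal RNA. Of 16 genes of that list, 2 were higher and 1 lower against GFP: the shared subunits Polr2f, by 0.62 ± 0.10 (limma adjusted p = 1.17e-04), and Polr2e, by 0.46 ± 0.11 (adjusted p = 0.00563), rose. Myc, a driver of ribosome synthesis, fell by 1.15 ± 0.33 (adjusted p = 0.0124). In the TOR list, 5 of 19 were higher and 5 lower. Mtor rose by 0.40 ± 0.09 (adjusted p = 0.00428) and Lamtor1, of the lysosomal platform that recruits it, by 0.64 ± 0.08 (adjusted p = 1.59e-05). Larp1, the TOP-binding protein, fell by 0.43 ± 0.09 (adjusted p = 0.00218) and Pdcd4, an inhibitor of the helicase Eif4a that S6 kinase marks for loss, by 0.88 ± 0.15 (adjusted p = 2.86e-04). These are messenger RNA levels and do not measure kinase activity. Against vehicle, Mtor rose by 0.53 ± 0.09, Lamtor1 by 0.78 ± 0.07 and Polr2f by 0.45 ± 0.09, while Larp1 fell by 0.50 ± 0.09, Pdcd4 by 1.02 ± 0.14 and Myc by 1.02 ± 0.31 (limma adjusted p = 0.0151 for Myc and smaller for the other 5).

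Of 30 initiation factors, 10 were higher and 3 lower against GFP (median -0.04, or 0.12 with arrays set to the same median). Eif2b1, of the exchange factor of Eif2, rose by 0.76 ± 0.09 (limma adjusted p = 9.2e-06), and Eif3k and Eif3h, subunits of the scaffold Eif3, by 0.74 ± 0.10 (adjusted p = 2.29e-05) and 0.46 ± 0.06 (adjusted p = 4.98e-05). Of 9 elongation and release factors, 2 were higher and 0 lower, Etf1 by 0.43 ± 0.11 (adjusted p = 0.00759) and Eif5a by 0.21 ± 0.06 (adjusted p = 0.0116). Of 22 other genes with TOP messages, 4 were higher and 5 lower, with a median of 0.00. Fau, whose product holds the small subunit protein S30 fused to a ubiquitin-like protein, rose by 0.49 ± 0.07 (adjusted p = 5.02e-05), and the snoRNA host Gas5 fell by 0.45 ± 0.10 (adjusted p = 0.00328). In GFP against vehicle, where 2.58% of all probe sets were called, 1 gene of these 7 lists was. It was Vim, of the TOP list, which rose by 0.98 ± 0.19 (adjusted p = 0.0104).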

How the data were processed

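The deposited values are linear probe set intensities of 22690 probe sets on 14 arrays. The authors' software is not given in the sources used here. In the deposited values each array's mean after trimming 2% at either end lay between 150.05 and 150.06. Because medians spanned 0.48 on the log2 scale, arrays were quantile normalized, values under the 5th percentile (an intensity of 2.01) set to it, and log2 taken. The 64 control probe sets and the dimmest 40% of the other 22626 were left out, and 13575 were tested; the lowest mean kept was an intensity of 28.4. Symbols came from the platform annotation.

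All 14 arrays were fitted with 3 group means in limma 3.58.1 (R 4.3.3), with an intensity trend, 11 residual and 4.94 prior degrees of freedom, and Benjamini-Hochberg adjustment over 13575 probe sets. The number of arrays limits the precision. The fit was tested on simulated data. Differences are given with SE and group means with SD.

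Named genes were, per comparison, the called genes with the 8 highest and the 8 lowest differences, the stalk proteins, Rpsa, Rps6, Rpl5, Rpl11, Rps27a, Rps3, Rps19, Rpl13a, paralogs with their partners, genes with oppositely called probe sets, Mapk8 and up to 4 genes of smallest p from each other list. Rps2 against GFP, genes called in the spike-in fit alone and the genes of smallest p in GFP against vehicle were named after their values were seen. The genes and lists were chosen with earlier results of these data known. Alternatives were other scalings, filters of 0 and 60%, a pseudocount of 16, no trend, 2-group fits, a spike-in covariate, a replicate block, the second probe set and leaving out each array. Centring arrays on the ribosomal protein mean was added after seeing the data.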

Additional observations from a re-analysis of the deposited data

Results flagged for a closer look

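In 8 of 102 groups of values examined, 1 array stood apart from the rest of its group by Dixon's ratio, and chance alone flags about 1 in 20. Values are log2 intensities after quantile normalization unless said otherwise. In the vehicle group, Rpl41 was high on array 2 at 11.52, with the next array at 11.27. Rpl7 was low on vehicle array 5 at 10.94. Vehicle array 1 was low for Rps3 at 10.37 and for Rps4x at 10.88. In the GFP group, array 2 was high for Rplp0 at 11.12 and for Rplp2 at 10.46, and its median deposited intensity of 58.3 stood above the 47.8 of the next array. GFP array 5 had the lowest log2 difference between the 3′ and 5′ probe sets of Gapdh, -0.61, with the next array at -0.53.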

How the results depend on the processing

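Counts are genes of the 45 called higher or lower and medians are log2 differences, as above. As deposited, Jnk1 against vehicle gave 2 higher, 9 lower and a median of -0.10, and GFP against vehicle a median of -0.11. With arrays set to the same median, Jnk1 against GFP gave 1 lower and a median of 0.19, Jnk1 against vehicle 0 higher, and GFP against vehicle a median of -0.24; this scaling put the median of all probe sets at 0.09 in Jnk1 against GFP and -0.11 in GFP against vehicle. Without a filter, 3 were lower against GFP (8.67% of all probe sets) and 3 higher against vehicle (11.9% of all), and without the intensity trend 3 were higher against vehicle (18.4% of all). With the spike-in covariate, Jnk1 against GFP gave 1 higher and 3 lower (8.32% and 7.68% of all), and Jnk1 against vehicle 0 higher (10.8% of all). Centring on the ribosomal protein mean gave 8 higher in Jnk1 against vehicle and a median of 0.0076 in GFP against vehicle, and 329 probe sets of the array higher and 25 lower there, against 278 and 72. The causes were not tested. In the fits without 1 array, 14.8% to 17.6% of all probe sets were higher and 13.7% to 16.1% lower against GFP, and 17% to 20.3% and 16.5% to 20.1% against vehicle. Leaving out 1 array gave 5 to 11 higher, 3 to 6 lower and medians of 0.01 to 0.09 against GFP (5 higher without GFP 5 or Jnk1 3, and 3 lower without GFP 2, GFP 5 or Jnk1 1). Against vehicle it gave 3 to 6 higher (3 without vehicle 1), 5 to 6 lower and medians of -0.05 to -0.00, and in GFP against vehicle 0 calls and medians of -0.08 to -0.03.

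Signs turned for Rpl27a with the spike-in covariate (0.12 against GFP and 0.12 against vehicle), Rps18 with that covariate against GFP (-0.036), Rps2 as deposited against GFP (-0.016), Rps2 against vehicle as deposited (-0.13) and at the same median (-0.10), and Rps9 on its second probe set against GFP (-0.0066). The replicate block gave 8 higher, 5 lower and a median of 0.05 against GFP (15.8% and 14.4% of all probe sets), 5 and 5 against vehicle (18% and 17.6% of all), and 0 and 0 with a median of -0.04 in GFP against vehicle. Arrays of the same number correlated between -0.24 and 0.12 in their deviations. With 4 or 5 pairs per comparison, these values cannot tell whether the numbers pair samples, which the labels do not state. The replicate block lost the call of Rps18 (adjusted p = 0.0519). With limma on all 14 arrays, 8 of the 14 calls against GFP and 4 of the 10 against vehicle were kept under all 4 scalings. These scalings include the main one and the centring on the mean of these same genes. Kept against GFP were Rpl19, Rpl41, Rplp2, Rps18, Rps25, Rps27l, Rps4l and Rps9. Those kept against vehicle were Rpl27a, Rps25, Rps3a1 and Rps6. The share of all called probe sets kept in the same way is not given here.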
